A study of Mus musculus with 12 samples.

Results

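A set of 10 genes of cellular iron uptake, storage and export was followed in RNA from 12 whole mouse embryos. They were taken by name from a table of 41079 genes: Tfrc, Steap3 and Slc11a2 for uptake, Fth1 and Ftl1 for storage, Ncoa4 and Pcbp1 for the handling of ferritin iron, Slc40a1 for export, and Aco1 and Ireb2 for control. All 10 were present and all 10 passed the filter on low counts. The embryos came from timed matings of Mfsd12 heterozygous parents and were 10.0 to 11.0 days past fertilization. By label, 4 were Mfsd12 knockout, 4 heterozygous and 4 wild-type, with no treatment in any group. The labels do not give the kind of Mfsd12 allele, the strain, the sex or the age of single embryos.

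Cells take up iron as transferrin bound to the transferrin receptor, reduce it in the endosome and move it into the cytosol through a metal transporter. Iron that is not used at once is stored inside a shell of ferritin heavy and light chains, which is broken down in lysosomes when iron is needed, or it leaves the cell through ferroportin. A pair of iron regulatory proteins controls this balance after transcription by binding a hairpin, the iron responsive element, in the mRNAs. At a 5′ UTR hairpin they block translation, and at 3′ UTR hairpins they protect the mRNA from decay. In the embryo, red cell precursors are among the heaviest users of iron. Mfsd12 is a transporter that brings cysteine into lysosomes and melanosomes.

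The hairpins are shown because they set apart the members whose mRNA level can answer to the iron regulatory proteins (3′ sites) from those controlled mainly in translation (5′ sites). The search pattern was CNNNNNCAGUGNNNNNN on the mature mRNA, sense strand only, with 5 paired stem bases on each side of the loop (G-U pairs allowed) and a last loop base other than G. It matched 4 of the 10 members, against 23 of 20899 genes (0.11%) for 5′ UTRs and 100 of 21028 genes (0.476%) for 3′ UTRs. Sequences and positions are from the GENCODE annotation of GRCm38, which is not the build of the counts. The 6 loop bases are in capitals.
Fth1, 5′ UTR, chr19:9982733-9982759, plus strand: uccugcuucaaCAGUGCuugaacggaa
Ftl1, 5′ UTR, chr7:45459780-45459806, minus strand: ucuugcuucaaCAGUGUuugaacggaa
Slc40a1, 5′ UTR, chr1:45925466-45925492, minus strand: aacuucagcuaCAGUGUuagcuaaguu
Tfrc, 3′ UTR match 1, chr16:32631220-32631246, plus strand: auuaucggaagCAGUGCcuuccauaau
Tfrc, 3′ UTR match 2, chr16:32631599-32631625, plus strand: auuaucgggagCAGUGUcuuccauaau
Tfrc, 3′ UTR match 3, chr16:32631664-32631690, plus strand: uauaucggagaCAGUGAucuccauaug
Tfrc, 3′ UTR match 4, chr16:32631711-32631737, plus strand: auuaucgggaaCAGUGUuucccauaau
The 3 storage and export genes each held 1 match in the 5′ UTR, and Tfrc held 4 in the 3′ UTR. These letters were not found in the UTRs of the other 6 members. Alas2, from a list of further mRNAs that carry such a hairpin, also had a 5′ match. Epas1, Pfn2 and Cdc14a of the same list had no match in either UTR. The pattern can thus miss hairpins, so a member without a match may still carry one.

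Libraries held 53133084 to 67977990 estimated counts. Mfsd12 itself was 9.38 to 16.2 CPM (reads of a gene scaled to equal library totals, with TMM factors) in wild-type, 2.31 to 3.57 CPM in knockout, and 5.91 to 8.84 CPM in 3 of the heterozygous embryos. The library labelled heterozygous 2 had 2.58 CPM, within the knockout range, so the members' differences from heterozygous embryos are given with and without it. That library also stood apart in summed low oxygen and glycolysis genes, with 13500 CPM where the other 11 embryos had 2232 to 5584 CPM. Knockout 3 stood apart in summed yolk sac endoderm markers (1273 CPM, against 22.1 to 107 CPM elsewhere) and hepatoblast markers (4015 CPM, against 12.7 to 707 CPM). Xist, which marks XX cells, was 397 to 1750 CPM in 6 embryos, among them all 4 heterozygous ones, and 0.226 to 9.41 CPM in the other 6.

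Compared per length (CPM per kilobase of exon, mean ± SD, n = 12), Ftl1 was the most abundant member at 907 ± 357 and Fth1 the next at 234 ± 126. Pcbp1 followed at 146 ± 19.5, Tfrc at 38.4 ± 15.3, Aco1 at 24.9 ± 3.34, Ireb2 at 22.6 ± 3.48 and Ncoa4 at 19.5 ± 3.97. Slc11a2 at 6.81 ± 1.46, Slc40a1 at 5.13 ± 2.39 and Steap3 at 3.68 ± 1.96 were lowest. Ftl1 was above Fth1 in 12 of 12 embryos, whereas Aco1 was above Ireb2 in 7 of 12 and Slc11a2 above Slc40a1 in 8 of 12, so those neighbours lay within each other's spread. Between embryos, Steap3 varied most, by 6.22-fold from lowest to highest, followed by Slc40a1 (4.98-fold) and Fth1 (4.84-fold), while Pcbp1 (1.48-fold) and Aco1 (1.55-fold) varied least.

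**Figure D1:**
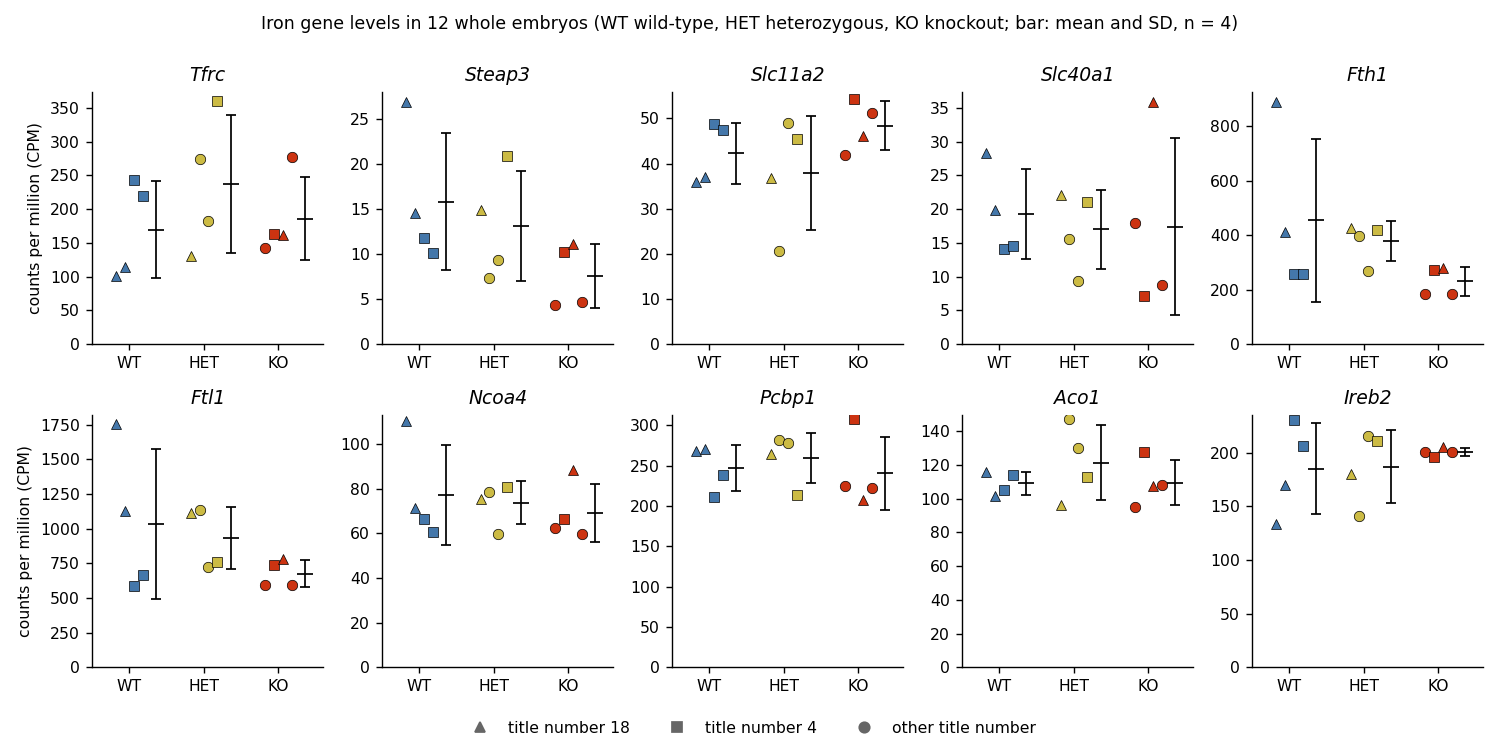
Level of each iron gene in CPM (vertical axis, from 0) in each wild-type, heterozygous and knockout embryo; each point is 1 embryo, its shape gives the first number in the sample title, and the bar is the mean and SD of 4 embryos. Wild-type 1 is highest for Steap3, Fth1, Ftl1 and Ncoa4, and the knockout embryos span 4.33 to 11.1 CPM for Steap3 and 184 to 279 CPM for Fth1.

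The first question was whether iron genes differed between knockout and wild-type embryos. None of the 10 passed the threshold (edgeR quasi-likelihood test, Benjamini-Hochberg adjusted p under 0.05 over all genes). Nor did any of the 20771 genes tested (0%), although 1730 had an unadjusted p under 0.05. DESeq2 called 111 genes (0.484%) and limma voom 0 (0%), with no member among them. Estimates were higher in knockout for 4 members and lower for 6, with a median log2 difference of -0.09 against 0.01 over all genes. The largest estimates were for Steap3, Fth1 and Ftl1, and all pointed to lower levels in knockout. The groups overlapped for all 10 members. Over all genes, 3.43% had groups that did not overlap.

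Tfrc (GRCm39 chr16:32427714-32451612, plus strand) encodes the transferrin receptor, the entry point of iron. Gene positions are on GRCm39, the build of the counts. Its level was 102, 115, 243 and 219 CPM in wild-type embryos 1 to 4, 130, 275, 183 and 361 CPM in the heterozygous embryos, and 142, 163, 162 and 277 CPM in knockout. The wild-type values lay on both sides of knockouts 1, 2 and 3, and knockout 4 was above all of them. The knockout minus wild-type log2 difference was 0.13 ± 0.35 (SE), with an edgeR adjusted p of 0.921 and an exact permutation p of 0.629. The direction was not stable: the estimate ran from -0.12 without knockout 4 to 0.36 without wild-type 3.

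Steap3 (chr1:120154137-120198810, minus strand) encodes the endosomal reductase that converts transferrin iron to its ferrous form. It was 26.9, 14.6, 11.8 and 10.1 CPM in wild-type, 14.9, 7.37, 9.39 and 21.0 CPM in heterozygous and 4.33, 10.2, 11.1 and 4.74 CPM in knockout embryos. Knockouts 1 and 4 were the lowest of the 12 embryos, and knockouts 2 and 3 lay at the lower end of the wild-type range. The log2 difference from wild-type was -1.06 ± 0.42, or 2.08-fold lower, with an unadjusted p of 0.0241, an edgeR adjusted p of 0.573 and an exact permutation p of 0.0857. Without wild-type 1 the difference was -0.68, and a block on title number gave -0.52 ± 0.32. Knockout 4 and heterozygous 3 are each alone in their title number, so they add nothing to any blocked difference.

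Slc11a2 (chr15:100285779-100322090, minus strand) encodes the transporter (DMT1) that carries the reduced iron out of the endosome. Wild-type embryos had 35.9, 37.0, 48.7 and 47.5 CPM, heterozygous ones 36.7, 20.6, 48.9 and 45.5 CPM, and knockouts 41.9, 54.2, 46.2 and 51.2 CPM. The lowest value belonged to the library labelled heterozygous 2. The knockout minus wild-type difference was 0.19 ± 0.23 on the log2 scale (edgeR adjusted p = 0.805). With a block on title number it was 0.38 ± 0.17 (unadjusted p = 0.0505, edgeR adjusted p = 0.885). Within number 4 the difference was 0.17, and within number 18 it was 0.34. The blocked fit also draws on number 14, which holds knockout 1 and heterozygous 2 but no wild-type embryo. Against heterozygous embryos the difference was 0.35 ± 0.23, the blocked one 0.53 ± 0.17 (unadjusted p = 0.0110, edgeR adjusted p = 0.474), and that without the library labelled heterozygous 2 0.14 ± 0.16. The knockout embryo was above the heterozygous one of its title number by 0.25, 0.33 and 1.02 at numbers 4, 18 and 14, where number 14 holds heterozygous 2.

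Fth1 (chr19:9957964-9962475, plus strand) encodes the ferritin heavy chain, which oxidises iron for storage. It was 889, 413, 256 and 259 CPM in wild-type, 427, 397, 269 and 418 CPM in heterozygous and 184, 273, 279 and 185 CPM in knockout embryos. Knockouts 1 and 4 were below all other embryos, whereas knockouts 2 and 3 lay just above wild-types 3 and 4. The knockout minus wild-type difference was -0.98 ± 0.35, or 1.97-fold lower, with an unadjusted p of 0.0146, an edgeR adjusted p of 0.545 and an exact permutation p of 0.171. Wild-type 1 carried much of it: without that embryo the difference was -0.43 ± 0.23. The blocked difference, to which knockout 4 adds nothing, was -0.65 ± 0.35.

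Ftl1 (chr7:45107368-45109310, minus strand) encodes the ferritin light chain, which helps to form the mineral core. Its levels were 1759, 1126, 585 and 664 CPM in wild-type, 1111, 1135, 723 and 758 CPM in heterozygous and 591, 737, 783 and 590.5 CPM in knockout embryos. All 4 knockouts fell within the wild-type range. The log2 difference was -0.61 ± 0.30 (edgeR adjusted p = 0.618, exact permutation p = 0.343), and -0.23 ± 0.25 without wild-type 1. Ftl1 counts were fractional in 12 of 12 embryos, and those of Fth1 in 4 of 12, so some reads of each were shared with other genes. The ferritin copy found in the table by its symbol, Ftl1-ps2, held 0.5 to 8.5 counts per embryo.

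Among the genes that handle ferritin iron, Ncoa4 encodes the receptor that delivers ferritin to lysosomes. Its range was 60.4 to 110.3 CPM in wild-type, 59.6 to 80.8 CPM in heterozygous and 59.9 to 88.4 CPM in knockout, with a log2 difference of -0.16 ± 0.20 between knockout and wild-type (edgeR adjusted p = 0.818). Pcbp1, a chaperone that loads iron into ferritin, ranged from 211 to 270.5 CPM, from 214 to 282 CPM and from 208 to 308 CPM in the same order, and differed by -0.04 ± 0.16 (edgeR adjusted p = 0.948).

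Slc40a1 (chr1:45947230-45965690, minus strand) encodes ferroportin, the known cellular iron exporter. It was 28.4, 19.9, 14.1 and 14.5 CPM in wild-type, 22.1, 15.6, 9.28 and 21.0 CPM in heterozygous and 17.9, 7.19, 35.8 and 8.75 CPM in knockout embryos. Knockout embryos held both the highest and the lowest value of the 12. The difference from wild-type was -0.14 ± 0.45 (edgeR adjusted p = 0.934), and -0.75 ± 0.38 without knockout 3. Knockout 3 is the library with the high yolk sac endoderm and hepatoblast sums; the part of those cells in its Slc40a1 level was not tested. Summed macrophage markers were 13.8 to 145 CPM in knockout, 70.6 to 182 CPM in heterozygous and 78.2 to 237 CPM in wild-type embryos. Cd163, a macrophage marker, was at 0 in all 4 knockouts, and also in the wild-type and heterozygous embryos with title number 4.

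The regulators varied little. Aco1, which encodes iron regulatory protein 1 (a cytosolic aconitase when it holds an iron-sulfur cluster), was 102 to 116 CPM in wild-type, 96.0 to 147 CPM in heterozygous and 94.8 to 128 CPM in knockout, a log2 difference of 0.0047 ± 0.15 between knockout and wild-type (edgeR adjusted p = 0.993). Ireb2, which encodes iron regulatory protein 2, was 196 to 205 CPM in knockout, 133 to 231 CPM in wild-type and 141 to 216 CPM in heterozygous embryos, and differed by 0.12 ± 0.18 (edgeR adjusted p = 0.853). With standard errors of this size, an adjusted p above the threshold does not show that the genotypes are alike.

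Heterozygous embryos lay between the other genotypes in mean level for Steap3, Fth1 and Ftl1. Knockout against heterozygous gave log2 differences of -0.79 ± 0.41 for Steap3 (edgeR adjusted p = 0.692), -0.72 ± 0.35 for Fth1 (0.686), -0.46 ± 0.30 for Ftl1 (0.731) and -0.35 ± 0.35 for Tfrc (0.814). Without the library labelled heterozygous 2 they were -0.99, -0.69, -0.36 and -0.27. Heterozygous against wild-type gave -0.27 ± 0.41, -0.27 ± 0.35, -0.15 ± 0.30 and 0.48 ± 0.35 (edgeR adjusted p = 1 for each), and -0.07, -0.29, -0.26 and 0.41 without that library. The first 3 of these turn positive in other fits, and were 0.11, 0.29 and 0.23 without wild-type 1. The other 6 members ran from -0.15 to 0.35 in the former comparison and from -0.18 to 0.15 in the latter. Without the library labelled heterozygous 2 they ran from -0.07 to 0.14 and from -0.14 to 0.13. Its removal left the groups overlapping for all 10 members in both comparisons, where 8.39% and 2.05% of all genes had groups that did not. There edgeR again called 0 genes in each, with 1815 and 107 at an unadjusted p under 0.05. With that library kept, groups also overlapped for all 10 members in both comparisons, where 3.44% and 0.876% of all genes had groups that did not. edgeR called 0 genes in each (0% of 20771). Unadjusted p was under 0.05 for 1537 genes against heterozygous and for 209 genes between heterozygous and wild-type, DESeq2 called 76 (0.35%) and 4 (0.0123%), with no member among them, and limma voom 0 and 0.

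Ratios within a library do not depend on scaling between libraries. The log2 ratio of Fth1 to Ftl1 per length was -1.62, -2.09, -1.83 and -1.999 in wild-type, -2.02, -2.15, -2.06 and -1.50 in heterozygous and -2.32, -2.07, -2.13 and -2.31 in knockout embryos. Heavy chain was thus lower relative to light chain in knockout by 0.33 on average, with 1 wild-type embryo inside the knockout range. The exact two-sided permutation p was 0.0571, where 0.0286 is the smallest that 4 against 4 can give, and it was 0.114 against heterozygous (0.0286 without the library labelled heterozygous 2, with a difference of -0.35 in place of -0.28). Within title numbers 4 and 18 the knockout minus wild-type difference was -0.16 and -0.28. The ratio of Tfrc to Fth1, uptake relative to storage, averaged -3.09 ± 1.45 (SD, n = 4) in wild-type, -2.52 ± 0.66 in heterozygous and -2.10 ± 0.63 in knockout. Its knockout minus wild-type difference of 0.99 had an exact permutation p of 0.286. It ran from 0.39 without wild-type 1 to 1.41 without wild-type 3, and was -0.58 within title number 4 but 1.70 within number 18.

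The first number of each sample title (4, 14, 15, 18 or 4.1b) has no stated meaning. Numbers 4 and 18 each held 1 knockout, 1 heterozygous and 2 wild-type embryos, so they can be compared with genotype in the fit. This comparison was chosen after seeing the data, and it covers 8 embryos. Of 19983 genes tested, 1707 passed the threshold (8.54%), and 689 of these were lower with number 18 (3.45%). Among the 10 members, 1 passed, a share close to the 8.54% of all genes. This was Tfrc, and it was lower with number 18.

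Tfrc was 102, 115, 130 and 162 CPM with number 18 (2 wild-type, heterozygous, knockout) and 243, 219, 361 and 163 CPM with number 4 in the same order. The ranges did not overlap, as for 20.2% of all genes, but the knockout embryos of the 2 numbers nearly met. The log2 difference was -0.93 ± 0.22 (edgeR adjusted p = 0.0397), or 1.91-fold lower with number 18. The call was lost without TMM scaling (adjusted p = 0.0582) and without any 1 of the wild-type or heterozygous embryos (0.0707 to 0.136), with differences of -0.94 and of -0.93 to -0.74. Without knockout 2 or knockout 3 the difference was -1.23 or -1.22.

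Ferritin and ferroportin had estimates in the other direction. Ftl1 was 1759, 1126, 1111 and 783 CPM with number 18 and 585, 664, 758 and 737 CPM with number 4, again without overlap, a difference of 0.76 ± 0.23 (edgeR adjusted p = 0.0714). Over all genes, 20.2% had ranges that did not overlap between these numbers. Slc40a1 differed by 0.95 ± 0.32 (adjusted p = 0.0961), and by 0.52 without knockout 3. Fth1 differed by 0.68 ± 0.32 (0.188), Ncoa4 by 0.33 ± 0.17 (0.224) and Steap3 by 0.36 ± 0.28 (0.417). Wild-type 1, which has number 18, carried much of these: without it they were 0.29, 0.15 and 0.045, and Ftl1 was 0.53. Slc11a2 at -0.34 ± 0.10 (0.0733) and Ireb2 at -0.31 ± 0.15 (0.192) had negative estimates, the latter -0.20 without wild-type 1. Without knockout 3, Ftl1 differed by 0.98 and Slc11a2 by -0.37, and without knockout 2 Slc11a2 differed by -0.38. DESeq2 called 3 members (Tfrc, Ftl1 and Slc40a1), where it called 16.1% of all genes. limma voom called 5 (Tfrc, Ftl1, Fth1, Slc11a2 and Ireb2), where it called 37.9%.

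**Figure D2:**
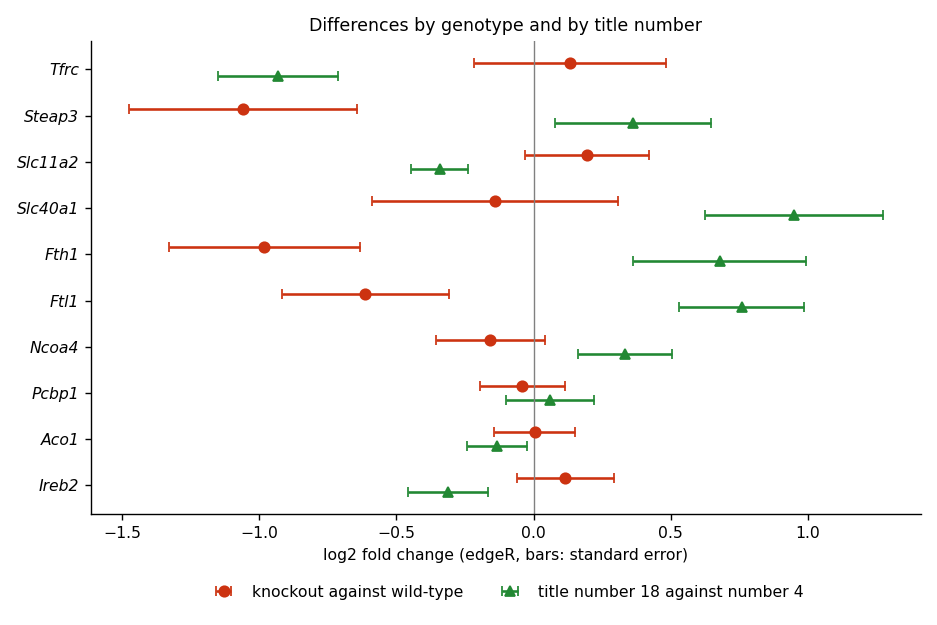
Log2 fold change of each iron gene (horizontal axis) for knockout against wild-type embryos (circles) and for title number 18 against number 4 (triangles); bars are standard errors from edgeR. Tfrc at -0.93 for the title numbers is the 1 value that passed the adjusted threshold; Steap3 and Fth1 have the lowest knockout estimates, at -1.06 and -0.98.

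The ratio of Tfrc to Fth1 was -4.90, -3.61, -3.49 and -2.55 with number 18 and -1.85, -2.01, -1.98 and -2.51 with number 4, on the log2 scale. The ranges did not overlap, but knockouts 3 and 2, at -2.55 and -2.51, nearly met. Among single genes, 20.2% had levels that did not overlap between these numbers. The mean difference of -1.55 had an exact permutation p of 0.0286, the smallest possible here. Any 2 sets of 4 without overlap give this p, which takes no account of genotype, and the comparison was chosen after seeing the data. Summed macrophage markers were also higher with number 18 (145 to 237 CPM against 49.7 to 92.1 CPM), as were hepatoblast markers (175 to 4015 CPM against 31.7 to 175 CPM). Summed erythroid markers overlapped (18990 to 96250 CPM against 13740 to 52160 CPM). The part of these cells in the iron gene differences was not tested. In whole embryos, fewer cells of a type and less RNA per cell cannot be told apart.

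**Figure D3:**
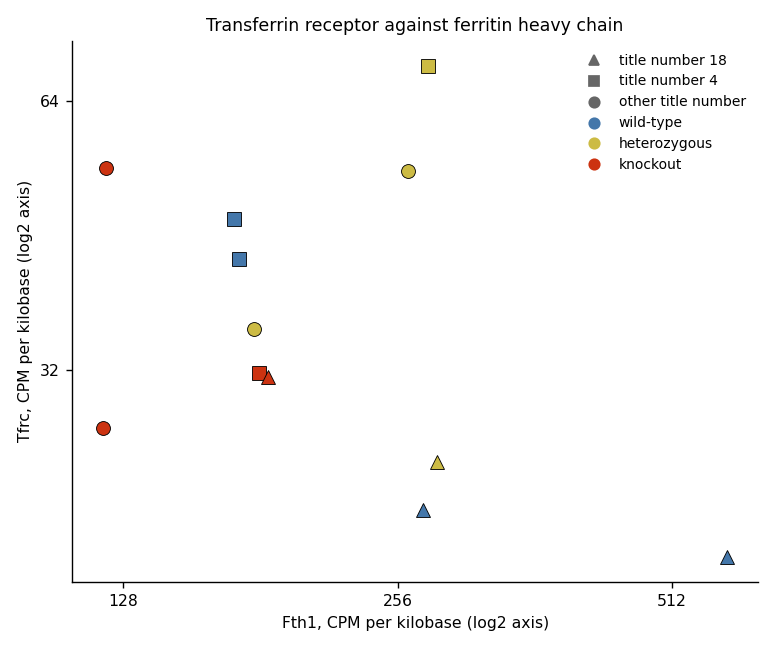
Tfrc against Fth1 in each embryo, both in CPM per kilobase on log2 axes; colour gives the genotype and shape the first number in the sample title. Log2 ratios are -4.90 to -2.55 with title number 18 and -2.51 to -1.85 with number 4. The wild-type and heterozygous embryos of number 18 lie below those of number 4. Knockout 3 (number 18) and knockout 2 (number 4) nearly coincide.

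Red cell genes were set beside the iron genes, since red cell precursors use much iron. Summed erythroid markers (18 genes, all detected) were 18060 to 96250 CPM in wild-type, 13050 to 52160 CPM in heterozygous and 5250 to 18990 CPM in knockout embryos. All 18 had lower estimates in knockout than in wild-type, 0 passed the adjusted edgeR threshold and 16 had an unadjusted p under 0.05. Of all genes, 8.33% had such a p, and the difference between these shares was not tested. Knockouts 1 and 4, lowest for Fth1 and Steap3, were also lowest for these markers, at 5250 and 8552 CPM, and wild-type 1, highest for both, was highest at 96250 CPM. The part of red cells in the Fth1 and Steap3 differences was not tested.

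Over the 12 embryos, Fth1 correlated with the erythroid sum at Pearson r = 0.95 (permutation p = 1e-05, the smallest that 100000 resamples give; adjusted over all 20771 genes, 0.00483) and Spearman rho = 0.90 (p = 0.00017; adjusted, 0.0321). Steap3 correlated at r = 0.91 (permutation p = 0.00014; adjusted, 0.0235) and rho = 0.85 (p = 0.0008; adjusted, 0.0596). Without wild-type 1 and knockout 1, the embryos farthest from the median, r was 0.91 for Fth1 and 0.80 for Steap3. These were the 2 members of 10 with an adjusted p of r under 0.05, against 1.16% of all genes.

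Ncoa4 (r = 0.81, rho = 0.83; permutation p = 0.00112 and 0.00168; adjusted, 0.0669 and 0.0801) and Ftl1 (r = 0.79, rho = 0.73; permutation p = 0.00166 and 0.00949; adjusted, 0.0732 and 0.130) missed the threshold, with r of 0.69 and 0.59 without those 2 embryos. Tfrc did not follow the red cell genes: r was -0.13 and rho -0.16 (permutation p = 0.695 and 0.618; adjusted, 0.820 and 0.779), and r was 0.07 without the 2 embryos. For the other 5 members r lay between -0.57 and 0.54, and the adjusted p was 0.213 or more for r.

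These permutations moved embryos across genotypes. With the genotype means removed and embryos permuted exactly within genotypes, a test added after seeing the data, 0 of 20771 genes passed the adjusted threshold for r, and 2277 had an unadjusted p under 0.05. There r was 0.91 for Fth1 (exact permutation p = 0.00116; adjusted, 0.285), 0.86 for Steap3 (0.00289; adjusted, 0.323), 0.92 for Ncoa4 (0.000579; adjusted, 0.237) and 0.73 for Ftl1 (0.0155; adjusted, 0.438). Spearman rho was 0.88, 0.81, 0.94 and 0.70 in the same order (adjusted p of 0.240 to 0.330), and Tfrc had r = -0.20. Without wild-type 1 and heterozygous 3, the embryos then farthest from the median, r was 0.86, 0.85, 0.85 and 0.52. The 8 embryos of title numbers 4 and 18 were also taken with the means of the numbers removed. There r was 0.94 for Fth1, 0.99 for Steap3, 0.75 for Ncoa4 and 0.78 for Ftl1 (adjusted exact permutation p = 0.244, 0.185, 0.352 and 0.343). Spearman rho was 0.77, 0.97, 0.67 and 0.60 in the same order. Without wild-type 1 and heterozygous 4, the embryos then farthest from the median, r was 0.70, 0.90, -0.66 and 0.42. Again 0 genes passed, with 3021 at an unadjusted p under 0.05.

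**Figure D4:**
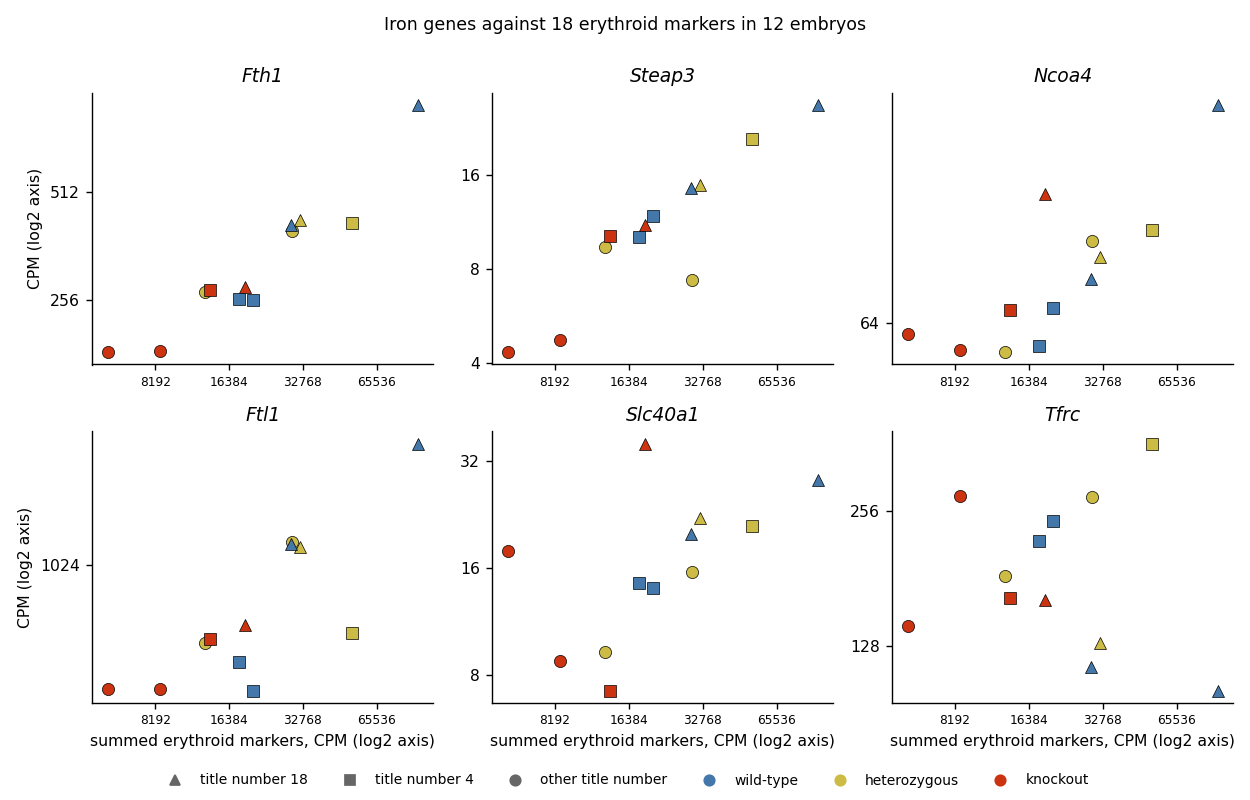
Level of 6 iron genes (CPM, log2 axis) against the summed level of 18 erythroid markers (CPM, log2 axis) in 12 embryos; colour gives the genotype and shape the first number in the sample title. Fth1 (r = 0.95) and Steap3 (r = 0.91) rise with the marker sum, whereas Tfrc (r = -0.13) does not.

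Other iron genes were described from 4 lists. Of 29 tested genes of iron transport and haem iron handling (32 listed), 16 had higher and 13 lower estimates in knockout than in wild-type, 0 passed the adjusted threshold, and the median log2 difference was 0.09. The smallest p-values belonged to Slc48a1, a haem transporter of endosomes and lysosomes, Slc25a37 (mitoferrin 1), the importer of iron into red cell mitochondria, and Hfe, a partner of the transferrin receptors. Knockouts had 112 ± 29.7 CPM of Slc25a37 and wild-types 236 ± 87.1 CPM (SD, n = 4 each), without overlap (log2 difference -1.07 ± 0.36, edgeR adjusted p = 0.538). Groups did not overlap for 3.43% of all genes, and Slc25a37 was named for its small p in this same comparison. Slc48a1 was 17.8 ± 3.73 against 31.1 ± 10.9 CPM (-0.80 ± 0.24, edgeR adjusted p = 0.538), and Hfe differed by -0.96 ± 0.37 (0.561).

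The 6 other mRNAs listed with an iron responsive element gave 4 higher and 2 lower estimates, 0 past the threshold and a median of 0.06. Alas2, the first enzyme of haem synthesis in red cells and also one of the erythroid markers, averaged 57.5 ± 26.0 CPM among knockouts and 168 ± 109 CPM among wild-types, without overlap (-1.55 ± 0.49, edgeR adjusted p = 0.538). It too was named for its small p in this comparison, where 3.43% of all genes had groups without overlap. Pfn2, an actin-binding profilin, differed by -0.65 ± 0.25 (0.556) and Epas1, the low oxygen transcription factor HIF-2 alpha, by 0.75 ± 0.33 (0.597). Among 9 tested iron chaperones and regulators of the regulatory proteins, 0 passed, the median was 0.01, and the smallest p-values belonged to Skp1 (-0.23 ± 0.16), Pcbp4 (0.25 ± 0.17) and Cul1 (0.19 ± 0.14). Among 23 genes of iron-sulfur cluster assembly, 15 had lower estimates, 0 passed and the median was -0.14; Bola3 (-0.34 ± 0.18), Nfu1 (-0.34 ± 0.19) and Hscb (-0.53 ± 0.33) had the smallest p-values.

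Between title numbers 18 and 4, 5 of 28 tested transport and haem genes passed, where 8.54% of all 19983 genes tested did. The difference between these shares was not tested. Higher with number 18 were Scara5, a ferritin receptor (1.38 ± 0.26, edgeR adjusted p = 0.0225), Steap4, a metalloreductase (1.70 ± 0.37, 0.0317), Hfe (0.90 ± 0.20, 0.0343) and Slc48a1 (0.61 ± 0.14, 0.0391), and lower was Flvcr1 (-0.57 ± 0.13, 0.0347). Of the other mRNAs listed with the hairpin, Pfn2 was higher (0.61 ± 0.10, edgeR adjusted p = 0.0141) and Cdc14a lower (-0.67 ± 0.15, 0.0311). Steap4 was low with both numbers, at a mean of 1.11 CPM with number 18 and 0.33 CPM with number 4. Scara5, Steap4, Flvcr1 and Cdc14a are named because they passed, after their values were seen.

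For each member, the genes most alike over the 12 embryos were listed among 12115 others with a mean of at least 5 CPM. Steap3 was most like Tal1 (r = 0.99), a transcription factor of blood development, and Trim10 (0.98). Fth1 was most like Prr13 and Prdx2 (both 0.98), the latter a peroxiredoxin abundant in red cells, and Ftl1 most like Erp29 and Hcfc1r1 (both 0.99). Tfrc was most like Hnrnpdl and Plaa (both 0.93), Slc40a1 like Rnase4 (0.94) and Plgrkt (0.93), and Slc11a2 like Klhl12 and Abitram (both 0.97). Ireb2 paired with Arhgef12 and Med14 (both 0.98), Aco1 with 4930455C13Rik (0.96), Ncoa4 with Creg1 and Neil1 (both 0.94), and Pcbp1 with Vasp (0.96) and Arhgdia (0.95). These values are descriptions of 12 libraries that share embryos with high or low members.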

How the data were processed

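Per the file headers, the authors' deposited table holds estimated counts (not normalized) by gene, made with featureCounts 2.0.6 on RefSeq GRCm39; multi-mapped and overlapping reads gave fractions, each mate was counted and strand was not used. Antisense genes overlap exons of Slc11a2 and Fth1, with mean counts of 3.32 and 2.38 against 2618 and 21373. The submitters' processing notes also name DRAGEN, without its role. Libraries were made with a stranded mRNA kit from 325 ng of RNA, per the labels; the table holds 0 spike-in rows.

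Counts were rounded, filtered with filterByExpr and scaled by TMM. The edgeR 4.0.16 quasi-likelihood test (R 4.3.3) used all 12 embryos and p-values adjusted by the Benjamini-Hochberg method over all genes, threshold 0.05. Exact two-sided permutation tests used log2 CPM (prior count 2) or log2 ratios. Each embryo is 1 sample; replicate numbers follow deposition order and pair nothing. Alternatives were DESeq2 1.42.0, limma 3.58.1 voom, other scalings and filters, title number or Xist as covariates, and each embryo left out. Correlation p-values were planned to be adjusted over the 10 members and were adjusted over all genes instead. The tests were tested on simulated data.

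The members and gene lists were chosen with earlier results of these data known. Named genes are all members, Mfsd12, the 3 genes with the smallest knockout against wild-type p in each iron list, and the 2 genes most alike each member; others are said to be chosen after their values were seen. A few genes that these rules name are not reported here.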

Additional observations from a re-analysis of the deposited data

Results flagged for a closer look

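In 36 groups of 4 embryos checked for a single value far from the others, 2 were marked; chance marks about 1 in 20. Tfrc was 277 CPM in knockout 4, against 142 to 163 CPM in the other knockouts. Pcbp1 was 308 CPM in knockout 2, against 208 to 224 CPM.

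For 6 of the 10 members, the knockout embryo lay above both wild-type embryos at one of title numbers 4 and 18 and below both at the other; this held for 38.2% of all genes, and the difference was not tested. The knockout minus wild-type log2 CPM difference at number 18 minus that at number 4 was 1.08 for Tfrc (0.58 and -0.50), 1.58 for Slc40a1 (0.59 and -0.99), -1.20 for Fth1 (-1.12 and 0.08), -1.09 for Ftl1 (-0.85 and 0.24), 0.60 for Ireb2 (0.44 and -0.15) and -0.83 for Pcbp1 (-0.38 and 0.45). Each number holds 1 knockout and 2 wild-type embryos.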

How the results depend on the processing

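Of 750 values under alternatives, 661 kept their direction and side of the threshold. No member was called between genotypes under any alternative run, while several small estimates changed sign; the cause was not tested. For knockout against wild-type, limma voom gave -0.27 for Tfrc, 0.0046 for Slc40a1, -0.072 for Aco1, -0.0066 for Ireb2 and 0.023 for Ncoa4, and library totals without TMM gave -0.010 for Aco1. The title number as a block, the fit nearest to a pairing, gave 0.041 for Slc40a1 and -0.026 for Aco1. Knockout 4 and heterozygous 3, each alone in its title number, add nothing to blocked differences. Leaving out embryos moved Tfrc between -0.12 and 0.36, Slc40a1 between -0.75 and 0.12, Aco1 between -0.078 and 0.072, Ireb2 between -0.014 and 0.24, Ncoa4 between -0.28 and 0.064 and Pcbp1 between -0.18 and 0.036. For heterozygous against wild-type, Steap3, Fth1 and Ftl1 were 0.41, 0.34 and 0.14 with limma voom and 0.26, 0.13 and 0.058 with the block; Steap3 and Fth1 were 0.30 and 0.046 with Xist as a covariate. Without single embryos they ran from -0.58 to 0.11, from -0.46 to 0.29 and from -0.35 to 0.23. Pcbp1 ran from -0.021 to 0.27 for title number 18 against 4. With the means of title numbers removed, r with the erythroid markers was 0.19 for Tfrc and -0.068 for Pcbp1.

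Genes called rose from 0 to 111 (knockout against wild-type), 76 (knockout against heterozygous) and 4 (heterozygous against wild-type) with DESeq2 and to 2 with the block in the first; leaving out embryos gave 0 to 1, 0 to 1 and 0. For the title numbers, 1707 became 3521 with DESeq2, 7580 with limma voom, 1110 without TMM, and 185 (without wild-type 4) to 4032 (without knockout 3). The Fth1 to Ftl1 log2 ratio difference ran from -0.39 to -0.24 (knockout against wild-type; exact p = 0.0286 without wild-type 2), from -0.35 to -0.13 (against heterozygous; exact p = 0.0286 without the library labelled heterozygous 2), from -0.19 to 0.039 (heterozygous against wild-type) and from -0.23 to 0.0026 (title numbers). The Tfrc to Fth1 difference ran from -0.034 to 0.98 (heterozygous against wild-type) and from -1.91 to -1.13 (title numbers; exact p = 0.0571 without any 1 of the number 4 embryos).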
